A study of Mus musculus with 4 samples.

Results

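The glucocorticoid-responsive genes described here are Nr3c1, which encodes the glucocorticoid receptor, and 9 genes that glucocorticoid hormones are known to induce in many tissues: Fkbp5, Tsc22d3, Sgk1, Zbtb16, Per1, Pdk4, Plin4, Cdkn1a and Mt2. They were found by the gene name printed beside each probe in the scanner files, which gave 14 probes for 10 genes, out of 55681 probes for 34787 genes and named transcripts on the array. All 14 probes were well above background on all 4 arrays, and all 14 were among the 44718 probes tested. The samples are lumbar spinal cord from 4 adult male ICR mice, an outbred strain, aged 8 weeks and carrying no engineered allele. The 2 SNL mice had the fifth lumbar (L5) spinal nerve tied with a tight silk ligature (spinal nerve ligation, a model of neuropathic pain), and the 2 sham mice had that nerve exposed without a tie. Cord was taken on day 10 from both groups, after perfusion with saline. Segment L5 is named in one label and L4 to L5 in another, and the sources used here do not state which side was taken.

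Glucocorticoids (corticosterone in mice) are adrenal steroids that enter cells and bind the receptor encoded by Nr3c1. Without hormone the receptor is held in the cytoplasm by heat shock proteins and immunophilins, and with hormone it moves to the nucleus and binds palindromic DNA elements beside its target genes. In the spinal cord, neurons and glia both carry the receptor, and the hormone is known to act on inflammation, metabolism and cell survival there. Several of these genes also have other regulators, such as p53 for Cdkn1a, the circadian clock for Per1, metal ions for Mt2, and PPAR and FOXO factors for Pdk4.

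Set beside sham cord, SNL cord had higher signals at 9 of the 10 genes and a lower signal at Nr3c1, reading each gene by its brightest probe (highest mean over the 4 arrays). Plin4 was 15.7-fold higher, Cdkn1a 4.75-fold, Pdk4 3.52-fold and Zbtb16 2.17-fold, while Mt2, Fkbp5, Sgk1, Per1 and Tsc22d3 lay 1.24-fold to 1.54-fold higher. Both SNL mice lay above both sham mice at 9 genes, against 24.9% of all genes measured, and both lay below at 1 gene, against 20.9%. At an unadjusted p under 0.05, 8 of the 10 genes were higher and 0 lower, while over all 29303 genes and named transcripts 6.36% were higher and 5.18% lower. The 10 genes were chosen with earlier results of these data known. Counts set beside the shares of all genes are therefore a description and not a test of the set. The median log2 change, SNL minus sham, was 0.61 over the 10 genes and 0.03 over all genes. None of the 10 passed the test with Benjamini-Hochberg adjustment over all probes (limma, adjusted p under 0.05), where adjusted p ran between 0.0653 for Pdk4 and 0.523 for Nr3c1. That threshold was passed upward by 63 probes (0.141%) and downward by 5 (0.0112%) on the array, or by 0.147% and 0.0102% of genes. At 2-fold or more with an unadjusted p under 0.05, 4 of the 10 genes were higher, against 1.91% of all genes, and 0 were lower, against 0.71%. Over all 14 probes, 9 were higher and 1 lower at an unadjusted p under 0.05, beside 6.22% and 5.98% of all probes tested. Both SNL mice lay above both sham mice on 10 of the 14 and below on 2, beside 23.4% and 22.4% of all probes. At 2-fold or more with that p, 5 of the 14 were higher and 0 lower, beside 1.8% and 0.767%. SNL mouse 1 stood apart by high skeletal muscle markers. Sham mouse 2 stood apart by low medians of meningeal fibroblast and of dorsal root ganglion and Schwann cell markers, with values given further on. Without SNL mouse 1, 6 of the 10 genes were higher at an unadjusted p under 0.05, without sham mouse 2 also 6, without SNL mouse 2 there were 8, and without sham mouse 1 there were 7. In bulk tissue, a gene's signal cannot tell more RNA in each cell apart from more cells of the type that carries it.

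**Figure D1:**
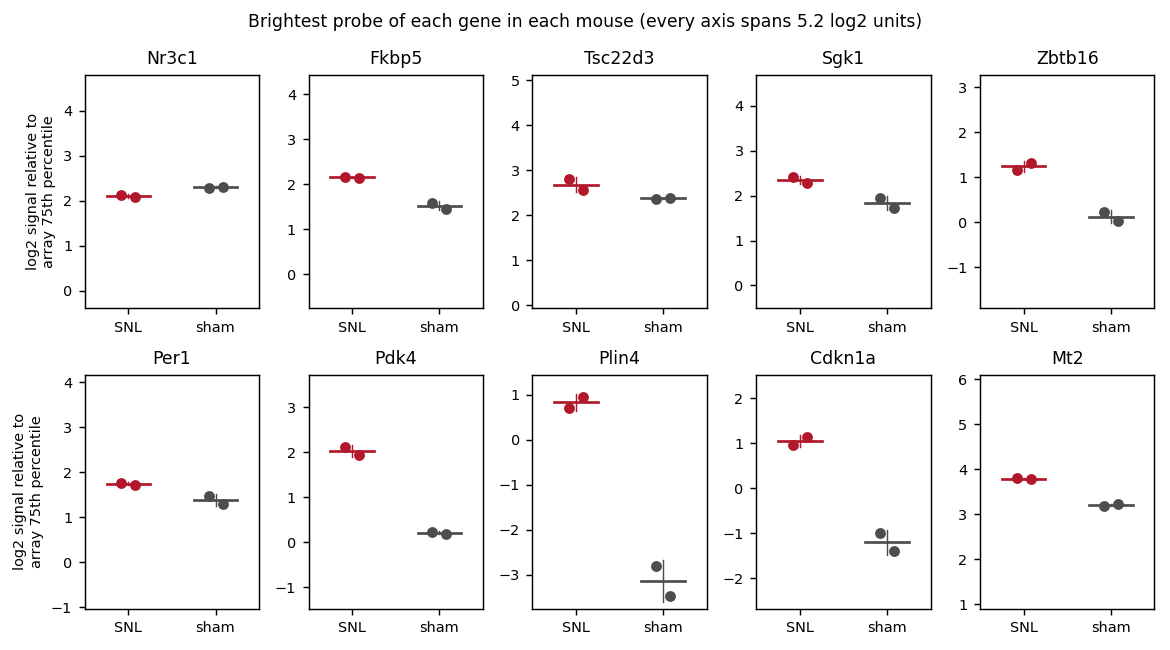
Log2 signal relative to each array's 75th percentile for the brightest probe of each of the 10 genes, with SNL left of sham. Points are single mice, horizontal bars are group means and vertical lines are the SD between 2 mice. Plin4, Cdkn1a, Pdk4 and Zbtb16 show the widest gaps between groups, and Nr3c1 is the gene with both SNL mice below both sham mice.

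Values below are log2 processed signals less the array's own 75th percentile, so a value of 0 is the brightness of the spot at that percentile. The receptor gene Nr3c1 (chromosome 18) was at 2.14 and 2.08 in the SNL mice and at 2.29 and 2.32 in the sham mice on its brightest probe. Both SNL mice lay just below both sham mice, a log2 change of −0.19 ± 0.10 (SE, n = 2 mice per group) with an adjusted p of 0.523 in limma. The other Nr3c1 probe was at −2.79 and −2.75 in the SNL mice, against −2.21 and −2.15 in the sham mice. Its change was −0.59 ± 0.10, with an unadjusted p of 0.0048 and an adjusted p of 0.200 in limma. The groups were thus apart on both receptor probes, and the SD between mice was under 0.05 in each group on each probe. The size of the receptor's change depended on the processing. With normexp background correction the brightest probe changed by −0.09, and with the mean of the probes by −0.39.

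Fkbp5 encodes an immunophilin that binds the receptor complex and lowers its affinity for hormone, a short negative feedback loop. Its probe (chr17:28536060-28536119, minus strand, mm9) read 2.15 and 2.14 in the SNL mice, against 1.59 and 1.45 in the sham mice. The SNL mice were nearly identical and both above the sham mice, with a change of 0.63 ± 0.11, or 1.54-fold (limma, adjusted p = 0.206). Tsc22d3 encodes GILZ, a leucine zipper protein that carries part of the anti-inflammatory action of the hormone. It was at 2.80 and 2.56 in the SNL mice and at 2.37 and 2.38 in the sham mice (chrX:137074094-137074153, minus strand, mm9). SNL mouse 1 was the higher of the 2, and the change was 0.31 ± 0.13 with an adjusted p of 0.475 in limma. Without SNL mouse 1 the Tsc22d3 change was 0.18, and with normexp correction it was 0.49.

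Sgk1 encodes a serine/threonine kinase induced by glucocorticoids and mineralocorticoids that acts on ion channels and transporters. The Sgk1 probe (chr10:21719507-21719566, plus strand, mm9) was at 2.41 and 2.28 in the SNL mice, against 1.94 and 1.72 in the sham mice. The groups did not overlap, and the change was 0.51 ± 0.13, or 1.43-fold (limma, unadjusted p = 0.02, adjusted p = 0.319). Of the 10 genes, 8 had 1 or more RefSeq promoter windows (GRCm38.p6, 300 bases, of which 250 lie before the start), 17 windows in all; Zbtb16 and Nr3c1 were not matched. They were searched on both strands for the palindrome that a pair of receptor molecules binds, here read as G, any base, ACA, 3 bases of any kind, TGT, any base, C. The shorter receptor word TGTTCT, which can lie within the palindrome, was searched too. The palindrome was present in 1 of the 17 windows, at Sgk1, and in 0.475% of all 32851 windows. The shorter word was in 4 of the 17, at Sgk1 and Tsc22d3, and in 19% of all windows. The Sgk1 window with the palindrome is shown because it is the match to the receptor's full site among these genes. It runs 250 bases before the start at chr10:21993640-21993889 (plus strand, GRCm38.p6), with the palindrome starting 188 bases before the start. Capitals mark the palindrome with the shorter words that overlap it, and near the left end a CACGTG E-box that shares bases with a further TGTTCT.
Sgk1: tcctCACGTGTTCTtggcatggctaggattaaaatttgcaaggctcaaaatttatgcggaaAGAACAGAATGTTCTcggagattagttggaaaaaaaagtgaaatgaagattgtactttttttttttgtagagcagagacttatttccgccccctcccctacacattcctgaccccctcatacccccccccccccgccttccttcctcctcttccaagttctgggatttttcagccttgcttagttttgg
Sgk1 has 6 such windows, and which of these starts the array probe reads was not determined. A match describes the letters only, and windows without one are not shown to lack receptor binding.

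Zbtb16 encodes PLZF, a zinc finger transcription factor known as one of the most strongly glucocorticoid-induced genes in several human and mouse cell types. It was at 1.16 and 1.32 in the SNL mice, against 0.22 and 0.02 in the sham mice (chr9:48462419-48462478, minus strand, mm9). The gap between groups was several times the spread within either, and the change was 1.12 ± 0.13, or 2.17-fold, with a limma adjusted p of 0.145. Per1 encodes a repressor of the circadian clock that glucocorticoids induce directly. Its brightest probe (chr11:68923364-68923423, plus strand, mm9) read 1.78 and 1.72 in the SNL mice and 1.48 and 1.30 in the sham mice. The groups were apart, with a change of 0.36 ± 0.12 (limma, unadjusted p = 0.0413, adjusted p = 0.389), but normexp correction left 0.13 and the mean of both probes 0.17. The other Per1 probe, among the dimmest here, was at −6.30 and −5.68 in the SNL mice, against −5.83 and −6.11 in the sham mice. On that probe the groups overlapped and the change was −0.02 ± 0.27. The difference between the changes of the Per1 probes was 0.38 ± 0.27 (limma, adjusted p = 0.678). The E-box CACGTG, which the clock factors CLOCK and BMAL1 bind, was in 3 of the 17 windows, at Per1, Fkbp5 and Sgk1, and in 7.15% of all windows. The Per1 window with it, chr11:69098699-69098948 (plus strand, GRCm38.p6), is given for that box, marked in capitals.
Per1: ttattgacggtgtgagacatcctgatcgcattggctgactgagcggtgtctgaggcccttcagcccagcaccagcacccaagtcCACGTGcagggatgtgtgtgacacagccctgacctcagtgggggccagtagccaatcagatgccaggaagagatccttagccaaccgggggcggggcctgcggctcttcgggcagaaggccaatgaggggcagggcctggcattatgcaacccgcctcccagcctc

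Pdk4 and Plin4 are genes of fuel use and fat storage. Pdk4 encodes a mitochondrial kinase that switches off pyruvate dehydrogenase and so spares glucose in fasting or under glucocorticoids. It was at 2.11 and 1.94 in the SNL mice, against 0.23 and 0.19 in the sham mice (chr6:5433441-5433500, minus strand, mm9). Each group was tight, with an SD of 0.12 in SNL and 0.03 in sham, and the change was 1.81 ± 0.11, or 3.52-fold. Its unadjusted p of 0.000156 was the smallest of the 10 genes, and its limma adjusted p was 0.0653. Plin4 encodes perilipin 4, a coat protein of lipid droplets abundant in fat and muscle. Plin4 read 0.70 and 0.96 in the SNL mice and −2.81 and −3.47 in the sham mice (chr17:56240055-56240114, minus strand, mm9). All 4 arrays measured it well above background, and the change was 3.97 ± 0.28, or 15.7-fold, with an unadjusted p of 0.000219 and an adjusted p of 0.0725 in limma. It stood at percentile 99.9 of the changes of all probes tested. Leaving out each mouse in turn kept the Plin4 change between 3.64 and 4.30 and the Pdk4 change between 1.73 and 1.902.

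For Pdk4 and Plin4, the members with the smallest p, the genes nearest in profile over the 4 arrays were found by the root mean square difference of values centred on each gene's mean. Nearest to Pdk4 were a probe without a gene name (0.044), Nags, an enzyme of urea cycle regulation (0.046), and Krt19, a keratin (0.059). Nearest to Plin4 were Coch, which encodes cochlin (0.17), Slc6a19, an amino acid transporter (0.24), and 4930412L05Rik (0.26). These genes had like differences between groups, with log2 changes of 1.78 for Nags, 1.75 for Krt19, 3.90 for Coch and 4.01 for Slc6a19. With 4 arrays in 2 groups, such likeness is a description only.

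Cdkn1a encodes p21, an inhibitor of cyclin-dependent kinases that stops the cell cycle and is induced by p53 as well as by glucocorticoids. Its brightest probe (chr17:29237377-29237436, plus strand, mm9), averaged over 10 spots and annotated to both RefSeq transcript variants, was at 0.96 and 1.14 in the SNL mice and at −0.998 and −1.40 in the sham mice. The groups were far apart, with a change of 2.25 ± 0.19, or 4.75-fold (limma, unadjusted p = 0.00043, adjusted p = 0.0887). A dimmer probe annotated to an Ensembl transcript (chr17:29235299-29235358) was at −4.28 and −3.60 in the SNL mice, against −5.63 and −6.62 in the sham mice, a change of 2.19 ± 0.45. Those probes gave changes that differed by 0.06 ± 0.30. The probe annotated to transcript variant 2 alone (chr17:29227986-29228045) was at −3.28 and −3.09 in the SNL mice, against −3.24 and −3.14 in the sham mice. On it the groups overlapped, and the change was 0.0059 ± 0.12 (limma, adjusted p = 0.990). The difference between the changes of the brightest and the variant 2 probe was 2.24 ± 0.21. In a limma fit of such differences over 15374 pairs of probes, run after the values had been seen, it had an unadjusted p of 0.000519 and an adjusted p of 0.148. In that fit 0 pairs (0%) were called at an adjusted p under 0.05, and 10.3% had an unadjusted p under 0.05. Because of the variant 2 probe, the mean of the Cdkn1a probes gave a smaller change of 1.48.

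**Figure D2:**
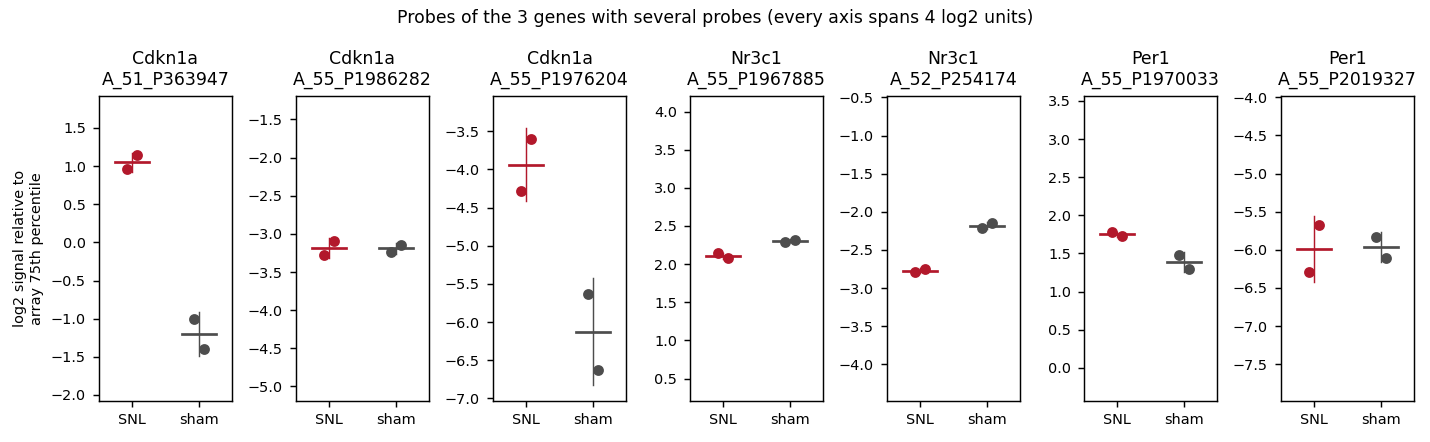
Log2 signal relative to each array's 75th percentile for every probe of Cdkn1a, Nr3c1 and Per1, with SNL left of sham; points are mice, bars group means and vertical lines the SD between 2 mice. The Cdkn1a probe A_55_P1986282, annotated to variant 2, has overlapping groups, while the other Cdkn1a probes differ by 2.25 and 2.19.

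Both RefSeq starts of Cdkn1a have a window, and neither holds the receptor palindrome or TGTTCT. The upstream window, chr17:29090729-29090978 (plus strand, GRCm38.p6), is shown for a pair of CATG words 6 bases apart, CATG being the core of a p53 site, and capitals mark the pair with the bases between. The search for this pair, on both strands, was added after the sequences had been seen. It starts 48 bases before the start, and it was in 1 of the 17 windows and in 0.712% of all windows.
Cdkn1a: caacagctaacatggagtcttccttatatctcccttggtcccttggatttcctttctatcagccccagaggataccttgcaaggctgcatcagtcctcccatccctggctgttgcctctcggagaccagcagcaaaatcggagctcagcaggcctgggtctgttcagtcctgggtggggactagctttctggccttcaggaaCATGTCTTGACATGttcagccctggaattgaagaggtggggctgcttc

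Mt2 encodes a metallothionein, a small cysteine-rich protein that binds zinc and copper and is induced by metals and by glucocorticoids. It was at 3.803 and 3.790 in the SNL mice, against 3.19 and 3.23 in the sham mice (chr8:96697371-96697430, plus strand, mm9). The mice of each group were nearly identical, and the change was 0.59 ± 0.09, or 1.5-fold (limma, unadjusted p = 0.0045, adjusted p = 0.195). With normexp correction the Mt2 change was 0.34. The word TGCGCNC, a form of the metal response core, was in 3 of the 17 windows, at Mt2, Sgk1 and Per1, and in 15.4% of all windows. Other forms of that core, such as those with TGCAC, were not searched, so these counts cover this word only. The 250 bases before the Mt2 start, chr8:94172368-94172617 (plus strand, GRCm38.p6), hold 1 match to this word, in capitals, and another lies just after the start.
Mt2: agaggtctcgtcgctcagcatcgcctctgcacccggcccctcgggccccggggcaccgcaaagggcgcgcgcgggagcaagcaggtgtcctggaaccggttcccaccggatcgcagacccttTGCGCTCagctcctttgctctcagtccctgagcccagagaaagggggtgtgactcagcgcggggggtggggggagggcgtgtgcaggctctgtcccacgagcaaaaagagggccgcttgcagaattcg

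**Figure D3:**
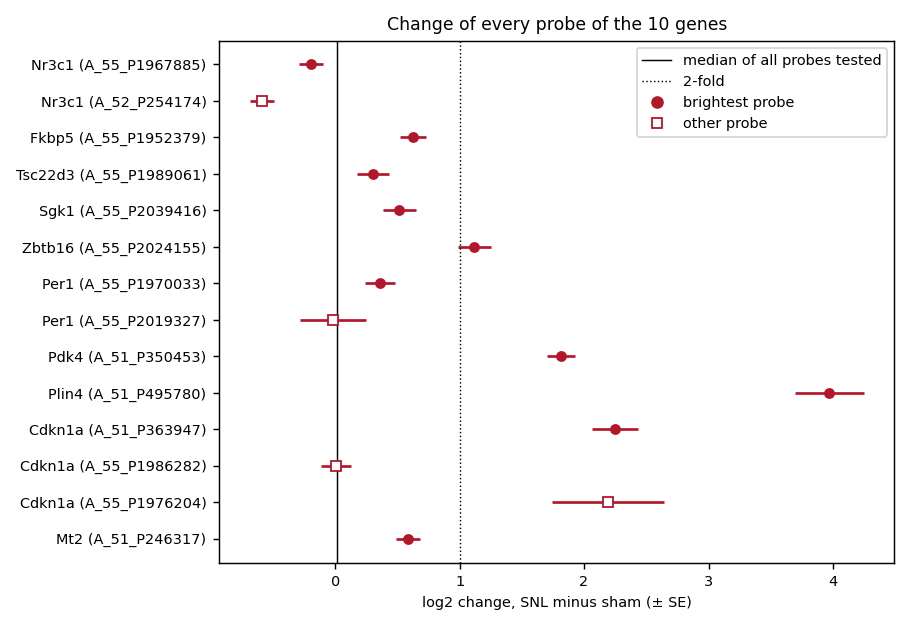
Log2 change, SNL minus sham, with its SE for all 14 probes. Filled circles are the brightest probe of each gene, open squares the other probes, the solid line the median of all probes tested and the dotted line 2-fold. Plin4 is farthest right at 3.97, and both Nr3c1 probes lie left of the median.

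A further 31 genes that glucocorticoids are known to induce were read in the same way. These were also chosen with earlier results of these data known. Of the 31, 1 was higher at an adjusted p under 0.05, beside 0.147% of all genes. This was Map3k6, a stress-activated kinase of the MAP kinase cascade, at 1.63 and 1.63 in the SNL mice, against −1.11 and −1.33 in the sham mice, a change of 2.85 ± 0.12, or 7.20-fold (limma, adjusted p = 0.0427). At an unadjusted p under 0.05, 18 of the 31 were higher and 2 lower, beside 6.36% and 5.18% of all genes. The 2 lower were Dio2, with a change of −0.72 ± 0.15, and Anxa1, with −0.37 ± 0.12 on its brightest probe and −0.58 on another. Both SNL mice lay above both sham mice at 23 and below at 4, beside 24.9% and 20.9% of all genes. The median change was 0.51, and it stayed between 0.46 and 0.61 with each mouse left out in turn. Arl4d, a small GTPase-like protein, was at 2.23 and 2.39 in the SNL mice and 0.72 and 0.95 in the sham mice (2.77-fold). Cebpb, a transcription factor of inflammation and metabolism, was 1.64-fold higher, and Il1r2, a decoy receptor for interleukin-1, 1.72-fold higher. Genes often used as hormone readouts varied. Dusp1, a phosphatase of MAP kinases, had a change of 0.51 ± 0.13, while Klf9, a Krüppel-like transcription factor, was at 2.11 and 1.98 in the SNL mice, against 1.82 and 1.88 in the sham mice, a change of 0.19 ± 0.11. Probes disagreed for Hif3a, with changes of 0.61 to 2.56, and for Sgk3, where the brightest probe gave −0.03 and another 1.45.

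**Figure D4:**
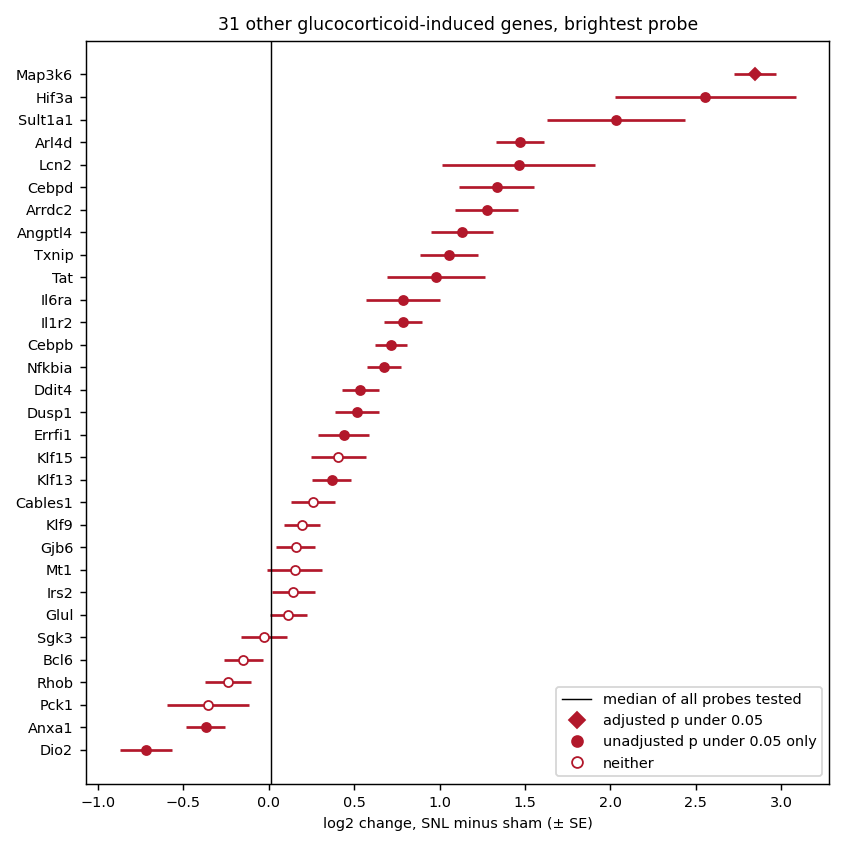
Log2 change, SNL minus sham, with its SE for the brightest probe of 31 other glucocorticoid-induced genes, ordered by size, with the median of all probes tested as a line. Map3k6 is the gene past the adjusted threshold, 18 genes are right and 2 left of 0 at an unadjusted p under 0.05.

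Genes for the supply and handling of the hormone came next. Of 20 genes for the mineralocorticoid receptor, steroid enzymes, chaperones and co-factors, 1 was higher and 1 lower at an unadjusted p under 0.05, shares near the 6.36% and 5.18% of all genes. The median change was 0.0091, and it ran between −0.02 and 0.02 with each mouse left out in turn. The lower one was Nr3c2, the mineralocorticoid receptor, at −2.82 and −2.94 in the SNL mice and −2.11 and −2.45 in the sham mice, a change of −0.60 ± 0.16 (limma, adjusted p = 0.332). Hsd11b1, the enzyme that regenerates active hormone inside cells, had a change of −0.29 ± 0.11, and H6pd, which feeds it with NADPH, 0.41 ± 0.12. Fkbp4, the immunophilin that replaces the Fkbp5 product in the complex once hormone binds, had a change of −0.11 ± 0.11. Of 10 genes of the corticotropin-releasing hormone axis, 2 were higher and 0 lower at an unadjusted p under 0.05, beside 6.36% and 5.18% of all genes. Crh, the releasing hormone itself, was at 0.43 and 0.01 in the SNL mice, against −2.18 and −1.58 in the sham mice, and its change was 2.10 ± 0.28 (limma, adjusted p = 0.170). Mc2r, the receptor for corticotropin, had a change of 2.00 ± 0.31 at a dim signal. The median over the 10 was 0.03, between −0.0090 and 0.12 with each mouse left out in turn.

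Family members and other pathways of the 10 genes were also read, and in none of these lists did a gene pass the adjusted threshold. Each count of genes at an unadjusted p under 0.05 is to be read beside the 6.36% of all genes that were higher and the 5.18% that were lower. Of 19 genes measured that were listed here as p53 targets, 6 were higher and 0 lower at an unadjusted p under 0.05 (all genes, 6.36% and 5.18%). The median change of the 19 was 0.20. One of the 6, Dda1, had a change of 0.45 on its brightest probe and −0.10 on another. Pmaip1, which encodes the pro-apoptotic protein NOXA, was at 0.87 and 0.98 in the SNL mice, against −0.40 and −0.65 in the sham mice (2.73-fold), whereas Mdm2, the ubiquitin ligase of p53, had a change of 0.13 ± 0.11. Of 6 other inhibitors of cyclin-dependent kinases, 2 were higher and 0 lower at that p. Cdkn1b, which encodes p27, had a change of 0.29 ± 0.09 on its brightest probe and −0.02 on another, and Cdkn2a had one of 2.92 ± 0.85 with SNL mice at −2.44 and −4.65, apart from each other by over 2 log2 units.

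Of 20 clock genes 1 was higher and 2 lower at an unadjusted p under 0.05, near the 6.36% and 5.18% of all genes. Their median change was 0.04, between −0.02 and 0.07 with each mouse left out in turn. The higher one was Nfil3, with a change of 0.55 ± 0.10. Per1's paralogue Per2 had a change of 0.19 ± 0.13, Per3 one of −0.48 ± 0.15, Nr1d1, a repressor of the clock, −0.49 ± 0.16, and Dbp, a clock output gene, 0.03 ± 0.11. Of 9 metallothionein and zinc genes measured 1 was higher and 0 lower at an unadjusted p under 0.05, beside 6.36% and 5.18% of all genes. The higher one was Mt3, with a change of 0.29 ± 0.10. The median change of the 9 was −0.147, between −0.153 and −0.138 with each mouse left out in turn. Mt1, the paralogue of Mt2, was at 3.44 and 3.11 in the SNL mice and 3.19 and 3.05 in the sham mice, so its groups overlapped, and another Mt1 probe gave a change of 0.89. Of 23 genes of lipid and fuel use 6 were higher and 0 lower at an unadjusted p under 0.05, beside 6.36% and 5.18% of all genes. Their median was 0.21, but 0.11 without sham mouse 1 and 0.12 without SNL mouse 1. The 6 were Foxo3, Ucp3, Angptl4, Plin2, Plin5 and Ucp2. The probes of Ucp3, a mitochondrial carrier, went opposite ways, with 0.70 on the brightest and −0.41 on another. Plin5, a perilipin of oxidative tissue, had a change of 1.56 ± 0.30, and Plin2, the widely expressed perilipin, 0.57 ± 0.10, against 0.34 ± 0.16 for Plin1, the perilipin of fat cells. Foxo3, a transcription factor that acts on Pdk4, had a change of 1.65 ± 0.15 on its brightest probe and 0.16 on another. Of the other pyruvate dehydrogenase kinases, Pdk2 had a change of 0.26 ± 0.21, Pdk1 −0.21 ± 0.10 and Pdk3 −0.18 ± 0.10. Among 11 genes of the SGK, FKBP and TSC22 families 1 was higher and 1 lower at an unadjusted p under 0.05, Fkbp1a at 0.39 ± 0.12 and Sgk2 at −0.35 ± 0.11. Of 7 partners of SGK1 measured, 0 were higher or lower at that threshold, with a median of −0.0042 that ran between −0.12 and 0.14 with each mouse left out in turn.

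Markers of other cell types were read beside these values. The 8 skeletal muscle markers had a summed log2 level of 5.06 and 1.56 in the SNL mice, against 2.04 and 2.35 in the sham mice. SNL mouse 1 alone was thus high. At an unadjusted p under 0.05, 0 of 8 were higher or lower, beside 6.36% and 5.18% of all genes. The median change of the 8 was 1.54, and it was −0.94 without SNL mouse 1. Without SNL mouse 1 the change was 1.73 for Pdk4 and 4.10 for Plin4. The 8 adipocyte markers summed to 1.01 and 0.33 in the SNL mice and to 0.39 and 0.41 in the sham mice. Of these, 0 of 8 were higher or lower at an unadjusted p under 0.05, beside 6.36% and 5.18% of all genes. The 10 microglia and macrophage markers summed to 6.01 and 5.79 in the SNL mice, against 5.25 and 5.28 in the sham mice. All 10 had both SNL mice above both sham mice, beside 24.9% of all genes, and 8 were higher at an unadjusted p under 0.05, beside 6.36%. Their median change was 0.58. The part of muscle, fat or microglia in the values of the 10 glucocorticoid-responsive genes was not tested. Endothelial and mural markers summed to 3.997 and 4.10 in the SNL mice and to 4.36 and 4.30 in the sham mice, with 2 of 10 lower at an unadjusted p under 0.05, beside 5.18% of all genes. Both SNL mice lay below both sham mice at 8 of the 10 and above at 0, beside 20.9% and 24.9% of all genes. Their median change was −0.26, between −0.30 and −0.22 with each mouse left out in turn. Motor neuron markers summed to 4.02 and 3.77 in the SNL mice and to 4.52 and 4.36 in the sham mice. Of these 7, 4 were lower and 0 higher at an unadjusted p under 0.05, beside 5.18% and 6.36% of all genes. Chodl and Mnx1 were lower at an adjusted p under 0.05, beside 0.0102% of all genes. Their changes were −3.84 ± 0.13 and −4.17 ± 0.18 (limma, adjusted p = 0.0394 and 0.0427). Mnx1 was not well above background in the SNL mice. The median change of the 7 was −0.73. The median change of astrocyte markers was 0.06, between 0.0032 and 0.16 with each mouse left out in turn. That of oligodendrocyte markers was 0.04, between −0.03 and 0.11, and that of neuron markers was 0.13, between 0.02 and 0.15. The median level of meningeal fibroblast markers was 2.04 and 1.09 in the SNL mice, against 1.26 and −1.35 in sham mice 1 and 2. For dorsal root ganglion and Schwann cell markers it was −0.33 and −0.94 in the SNL mice. In sham mice 1 and 2 it was 0.42 and −5.70. Members of the latter list varied. Ncmap was at 1.82 in sham mouse 1 and −0.30 in sham mouse 2, while Avil was at −6.00 and −5.70.

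**Figure D5:**
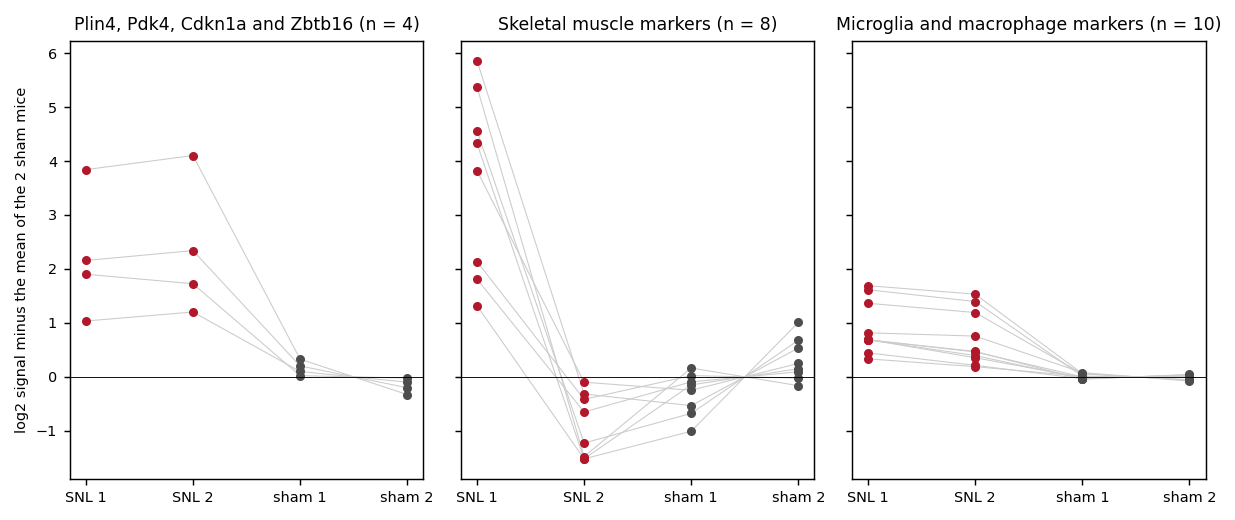
Log2 signal of each gene minus the mean of the 2 sham mice, in each mouse, for 4 glucocorticoid-responsive genes, 8 skeletal muscle markers and 10 microglia and macrophage markers; each line is 1 gene, with SNL left of sham. The muscle markers are high in SNL mouse 1 alone, while the 4 genes and the microglia markers are high in both SNL mice.

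Between 74.9% and 78.1% of spots were well above background on the SNL arrays and between 81.9% and 82.1% on the sham arrays, and no non-control spot was saturated. Correlations between arrays over probes were 0.988 within SNL, 0.992 within sham and 0.983 to 0.986 between groups. All 4 arrays were on 1 slide and in 1 scan. Both SNL arrays carry the first position number 2 and both sham arrays 1, so group and array position cannot be told apart.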

How the data were processed

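Per the labels' protocols, total RNA from each mouse was labelled with Cy3 and hybridised to a 1-colour Agilent array. Linear spot intensity was read from the deposited scanner output of Agilent Feature Extraction (version 10.7.3.1 in the file headers, while the submitters' processing notes name 10.7.1.1). The headers also name array design 028005 and place its probes on mm9. The authors also deposited a log2 value table, used as an alternative. Set against the scanner values its columns correlate at 1 and are shifted by 0.122 to 0.132 in the median, and over which spots it was scaled stays unknown. Its column medians are −3.48 and −3.33 for SNL and −3.45 and −3.52 for sham.

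The log2 processed signal was scaled by subtracting the 75th percentile of the 59305 non-control spots of its array, and averaged over the spots of a probe without outlier spots. Probes well above background on at least 2 arrays entered limma 3.58.1 (R 4.3.3; lmFit, eBayes; 2 residual and 1.70 prior degrees of freedom), adjusted by Benjamini-Hochberg over 44718 probes. Per the labels each replicate is a separate mouse. Precision is limited by the number of arrays (median SE 0.14 over probes). A test used simulated data for SNL against sham with 44313 probes, of which 200 were changed, and with spreads reassigned at random among probes. There 0% of true log2 changes of 1 were called, 16% of those of 2 and 44% of those of 3. For true changes of −2 the share was 28%, and 0 unchanged probes were called. These rates hold for that share of changed probes only. Symbols were updated through a RefSeq table, 26762 probes by accession, 3819 by symbol and 639 by synonym, and 24461 kept the file's name. Across probes, the deviation of replicate 1 from its group mean in SNL correlated at −0.016 with that in sham. This value cannot show whether the mice were paired. In both groups, replicates 1 and 2 have the second position numbers 1 and 2 on the slide. The genes and all lists were chosen with earlier results of these data known. Named genes are the 10 with every probe, up to 4 of each other list with the smallest p and groups apart, genes the rule lists by name (Per2, Mt1, Mt3, Nr3c2, Hsd11b1, Fkbp4, Mdm2, Cdkn1b, Dusp1, Klf9, Dbp, Nr1d1), and the 3 nearest profiles of the 2 with the smallest p. Further genes (Dio2, Anxa1, Hif3a, Sgk3, Plin1, Plin5, Ucp2, Pdk1, Pdk2, Pdk3) were chosen after their values were seen. Alternatives were normexp correction (offset 50), quantile scaling, other dim-probe filters, the variance trend, other summaries of a gene's probes, the replicate number as a block, and each mouse left out. Since all arrays share 1 slide and 1 scan, neither could enter as a block.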

Additional observations from a re-analysis of the deposited data

How the results depend on the processing

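The brightest probes of the 10 genes kept their direction under every alternative run. None was called as reported, and 3 genes were called with normexp correction (Plin4, Cdkn1a, Pdk4), 4 with no filter on dim probes (Zbtb16 added), 1 with the filter on all 4 arrays (Pdk4) and 6 with the variance trend and robust estimation (Fkbp5 and Mt2 added to those 4). The adjusted p from limma ran between 0.0014 and 0.536 for Pdk4, between 0.0044 and 0.526 for Plin4 and between 0.0045 and 0.526 for Cdkn1a. With quantile scaling, with the variance trend and with the mean of the probes, 1 of the 10, Nr3c1, was lower at an unadjusted p under 0.05. With each mouse left out, 6 to 8 of the 10 were higher at that p and 0 lower. Over all probes, 186 higher and 24 lower were called with normexp correction, 34 higher with quantile scaling, 2100 higher and 169 lower with no filter, 9 lower with the filter on all 4 arrays, 512 higher and 139 lower with the variance trend, and 3 lower with 1 probe per gene. With the replicate number as a block, 0 probes were called higher and 0 lower, and the block changed no call among the 10 genes, of which 7 were higher at an unadjusted p under 0.05. With each mouse left out, 0 probes were called in either direction, with fewer samples in the fit. The probe of Cdkn1a annotated to variant 2 turned to −0.12 with normexp correction, −0.078 with quantile scaling, −0.0090 with the percentile over probes detected on all arrays, and ran between −0.089 and 0.10 with each mouse left out. The dim Per1 probe turned to 0.10 with normexp correction and ran between −0.33 and 0.29 with each mouse left out. The cause was not tested.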
